A study of Brassica rapa subsp. pekinensis with 6 samples.

Results

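Antisense lncRNAs were taken as the assembled transcripts that the deposited table assigns to class x, the code for a transcript on the strand opposite to a reference gene, with a length of at least 200 bases. There were 452 of them, from 315 assembled genes, among 57931 linear transcripts. Each was paired with every reference mRNA (33354 in all) on the same chromosome and the other strand whose start-to-end span it overlapped. This gave 539 pairs of 419 antisense lncRNAs and 350 sense mRNAs. For the other 33 antisense lncRNAs, the reference gene named in the table was not among the mRNAs analysed here.

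The study compared germinated seeds of Chinese cabbage (Brassica campestris L. ssp. pekinensis) of the doubled haploid line 'FT'. The vernalized seeds (Ver) stayed at 4 °C for 25 days in the dark after germination, and the non-vernalized seeds (Nor) stayed at 25 °C for about 48 h in the dark. There were 3 libraries of each group, 1 for each culture dish of 20 seeds, and both groups were sampled at the same length. Time after germination and temperature both changed between Ver and Nor seeds, and their effects cannot be told apart. The libraries were made with a strand-specific kit after removal of ribosomal RNA. Whether the alignment and the counting used the strand of the reads is not given in the sources used here, and reads of a gene and of its antisense partner cannot be told apart where the strand is not used. The 41 antisense lncRNAs with 1 exon, which have no splice site to show a direction, nevertheless carry a strand in the table.

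An antisense transcript is read from the DNA strand opposite to a protein-coding gene, so it shares sequence complementarity with the mRNA wherever their exons overlap. Antisense transcription can lower the output of the sense gene, can accompany its activity, or can be a by-product of a neighbouring promoter or terminator. In Arabidopsis thaliana, COOLAIR, a set of antisense RNAs from the FLOWERING LOCUS C (FLC) gene, is induced by cold and takes part in shutting down FLC, the repressor of flowering that vernalization silences.

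The study designed quantitative RT-PCR primers for 3 of the antisense lncRNAs. They are shown because they are the stretches by which these 3 transcripts were tracked, and each antisense lncRNA is described with its values further on. MSTRG.11766.1 lies over dioxygenase genes on A04, MSTRG.22964.1 over a chlorophyll a-b binding protein gene on A08, and MSTRG.11059.1 over Rubisco small chain genes on A04. The cDNA was primed with oligo dT and random hexamers, which copy both strands. The primers are given in lower case from 5′ to 3′.
MSTRG.11766.1 forward: tcatcggtttttggaacatca
MSTRG.11766.1 reverse: ccagaagcgaggaaaaggtt
MSTRG.22964.1 forward: gtgtcccatccgtagtctcctg
MSTRG.22964.1 reverse: ccccagcagcatcagaagtc
MSTRG.11059.1 forward: taaccatcggtaaccaagaagaa
MSTRG.11059.1 reverse: catcgcctacaaaccaccaa

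The libraries held between 83976912 and 104903263 estimated counts. Antisense lncRNAs took 0.688%, 0.772% and 0.868% of the counts in the Ver libraries, against 0.684%, 0.683% and 0.725% in the Nor libraries, and the groups overlapped (exact two-sided permutation test, p = 0.2, where 0.1 is the smallest value 3 against 3 libraries allow). Seed markers were present in all 6 libraries. The summed FPKM (fragments mapped, scaled to the length of the transcript and to the size of the library) of 17 oleosin mRNAs, which coat seed oil bodies, was between 1046 and 1080 in Ver and between 20.3 and 23.2 in Nor. That of 24 chlorophyll a-b binding protein mRNAs was between 12602 and 12733 in Ver and between 3470 and 3528 in Nor. That of 5 Rubisco small chain mRNAs went the other way, with 2438 to 2648 in Ver and 4532 to 4947 in Nor. A further Rubisco mRNA outside these 5, BraA04g011050.3C, was higher in Ver and stood above their sum in every library. The direction of the 5 is therefore not that of all Rubisco mRNAs. These reserve and plastid mRNAs differed between the same libraries as every result below, and the part of this difference in the antisense results was not tested.

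The antisense lncRNAs were short and had few exons. Their length, summed over exons, had a median of 436.5 bases, but their span on the chromosome had a median of 1382.5 bases and reached 256770 bases. Beside the 41 with 1 exon, 249 had 2 exons and 162 had 3 or more exons, and 102 spanned at least 10 times their own length. An overlap of spans is therefore not an overlap of exons, whose positions the table does not give. The sense mRNA models are coding regions without untranslated regions, since all 350 lengths are multiples of 3.

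In 219 pairs the 3′ ends of the members overlapped, in 104 pairs the 5′ ends, in 137 pairs the sense mRNA lay within the antisense span and in 79 pairs the antisense span lay within the sense mRNA. The overlap had a median of 493 bases and ranged from 1 to 23334 bases. A separate class of 77 pairs overlapped by at most 10 bases, of which 46 overlapped by 4 bases and 19 by 3 bases. In 71 of these 77 pairs the 3′ ends met, so the antisense lncRNA ended within or beside the stop codon of the sense reading frame. Most antisense lncRNAs (342) overlapped 1 sense mRNA, and 77 overlapped 2 or more, up to 9.

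Many antisense lncRNAs were as abundant as their sense mRNAs. The mean FPKM over the 6 libraries had a median of 2.22 in the 452 antisense lncRNAs and 3.21 in the 350 sense mRNAs, against 1.02 in all 33354 mRNAs and 1.17 in 3068 intergenic transcripts (class u) of at least 200 bases. Antisense and intergenic transcripts were assembled from reads, whereas the reference mRNAs include genes with almost no reads (lower quartile 0.16 FPKM). The median of all mRNAs is therefore not a like comparison. As the median over pairs, the antisense FPKM was 47.4% of the sense FPKM. It exceeded the sense FPKM in 215 of the 539 pairs and was below 5% of it in 113 pairs, 48 of which were below 1%. There were 316 antisense lncRNAs with a mean FPKM of at least 1, 94 with at least 10 and 13 with at least 100. Counts were above 0 in all 6 libraries for 316 of them.

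**Figure D1:**
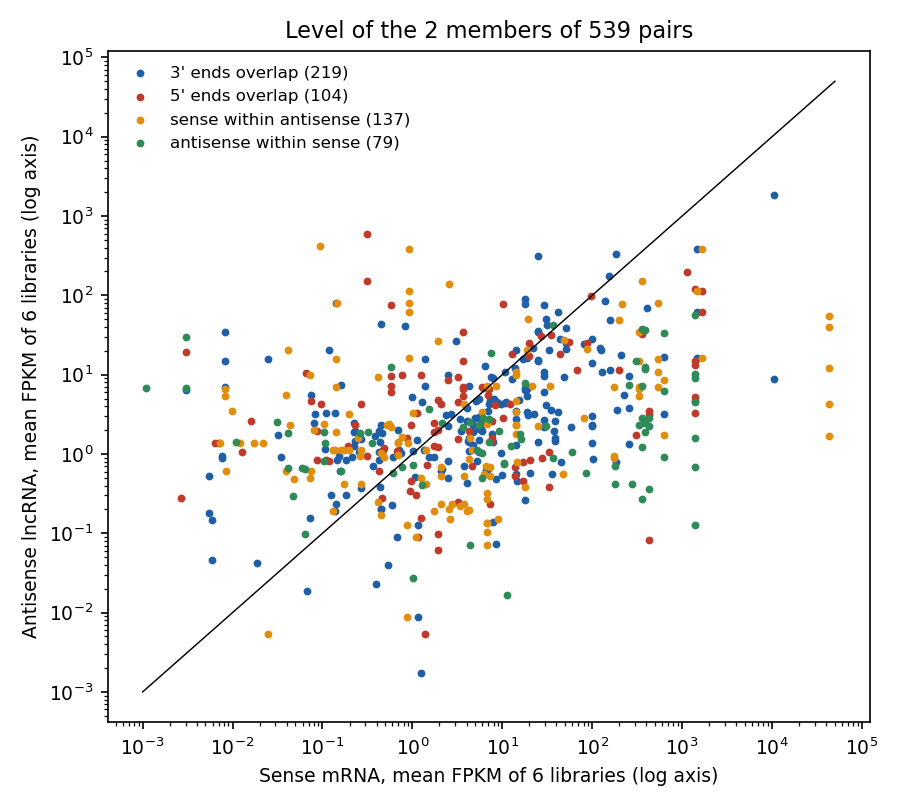
Mean FPKM over the 6 libraries of the sense mRNA (x axis, log) and of the antisense lncRNA (y axis, log) of 539 pairs, coloured by how the spans overlap, with the line of equal level. The antisense lncRNA lies above the line in 215 pairs.

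The most abundant antisense lncRNA was MSTRG.11062.1 (A04:8696934-8697512, plus strand), whose 3′ end overlapped BraA04g011050.3C by 407 bases. The sense gene encodes ribulose 1,5-bisphosphate carboxylase/oxygenase (Rubisco), the enzyme that fixes CO2. The antisense level was 2031, 2951 and 1952 FPKM in Ver and 1305, 1574 and 1300 FPKM in Nor. The sense level was 13044, 13082 and 13258 FPKM in Ver and 7851, 8008 and 7727 FPKM in Nor. Both members were higher in every Ver library, by 0.73 ± 0.19 (log2, SE) for the antisense and 0.74 ± 0.02 for the sense, below the fold threshold used here, and the antisense stood at 17.6% of the sense FPKM over the 6 libraries.

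Next came MSTRG.21717.1, MSTRG.25120.1, MSTRG.11059.1 and MSTRG.14889.1. MSTRG.25120.1 had 463, 479 and 391 FPKM in Ver and 408, 417 and 392.1 FPKM in Nor, while its sense mRNA BraA09g017430.3C stayed between 0.003 and 0.178 FPKM. MSTRG.14889.1 had 348, 354 and 355 FPKM in Ver and 323, 300.2 and 325 FPKM in Nor, against 195, 220 and 205 FPKM in Ver and 161, 162 and 159 FPKM in Nor for BraA05g037060.3C, a metallothionein-like metal-binding protein whose 3′ end it overlapped by 35 bases. MSTRG.21717.1 had 740, 600.1 and 590.1 FPKM in Ver and 988, 0 and 603 FPKM in Nor. The 0 in Nor 2, beside a value near 1000 in Nor 1, leaves this transcript without a usable group level.

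Such gaps were common among the antisense lncRNAs. A count of 0 in at least 1 library beside 100 or more in another was found for 79 antisense lncRNAs, of which 58 belonged to an assembled gene with several class x transcripts, and 6 of the 79 passed the test described next. The extreme case was a stretch of A06 with chloroplast-like genes. MSTRG.16981.31 spanned A06:15357102-15613868 and had 38.4, 208 and 128 FPKM in Ver and 0, 39.1 and 60.9 FPKM in Nor. Its sense mRNA BraA06g023070.3C, which encodes the alpha subunit of the chloroplast ATP synthase, had 3.17, 0.864 and 0.627 FPKM in Ver and 2.19, 1591 and 1633 FPKM in Nor, so Nor 1 lay within the Ver range. Its call (log2 fold change -9.43 ± 2.58, edgeR adjusted p = 0.0483) was kept only without Nor 1, and in the other 5 fits the adjusted p reached 0.149, with a log2 fold change between -10.49 and -8.99 over the 6 fits. These copies share sequence with the chloroplast genome and their values are uncertain.

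Estimated counts were compared between the groups with the quasi-likelihood test of edgeR over all 49351 transcripts that passed the count filter, and a transcript was called at an absolute log2 fold change (Ver over Nor) above 1 with a Benjamini-Hochberg adjusted p of at most 0.05. Of the 452 antisense lncRNAs, 376 passed the filter. Of these, 59 (15.7%) were called, 29 (7.71%) higher and 30 (7.98%) lower in Ver, and among all tested transcripts 12.8% were called, 6.35% higher and 6.48% lower. The share was 17.4% among 2740 tested intergenic transcripts. In each of the 59 the Ver and Nor libraries did not overlap, which was so for 43.4% of the tested antisense lncRNAs and 47.4% of all tested transcripts. The 59 came from 48 assembled genes.

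Of the 350 sense mRNAs, 290 were tested and 51 (17.6%) were called, 25 (8.62%) higher and 26 (8.97%) lower, beside 14.4% of the 26241 tested mRNAs without an antisense lncRNA. The share of antisense lncRNAs and of sense mRNAs called was thus near that of the rest of the table. At an unadjusted p of at most 0.05 and the same fold threshold, 81 antisense lncRNAs (21.5%) and 59 sense mRNAs (20.3%) were called, where 16.6% of all tested transcripts were.

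In 384 pairs both members were tested. Both were called in 41 of these pairs, in the same direction in 40 (18 higher and 22 lower) and in opposite directions in 1. The antisense lncRNA alone was called in 20 pairs, the sense mRNA alone in 42 and neither in 281. Calls in the same direction made up 10.4% of the pairs. Among 3444 tested pairs of neighbouring mRNAs on opposite strands within 1000 bases of each other they made up 1.02%, 24 higher and 11 lower, with 25 in opposite directions. Across the 384 pairs, the log2 fold changes of the members correlated with r = 0.54, and across the 3444 neighbouring pairs with r = 0.02. Both members are read from the same 6 libraries and some transcripts occur in several pairs, so these values are descriptions. Among the 76 tested pairs with the antisense below 5% of the sense FPKM, where a small share of sense reads given to the wrong strand would weigh most, 11 were called together, 10 higher and 1 lower. With the antisense above the sense FPKM, 9 of 131 were, 1 higher and 8 lower. The part of such reads was not tested. With 1 pair for each transcript, 22 of 230 pairs were called in the same direction and r was 0.51.

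**Figure D2:**
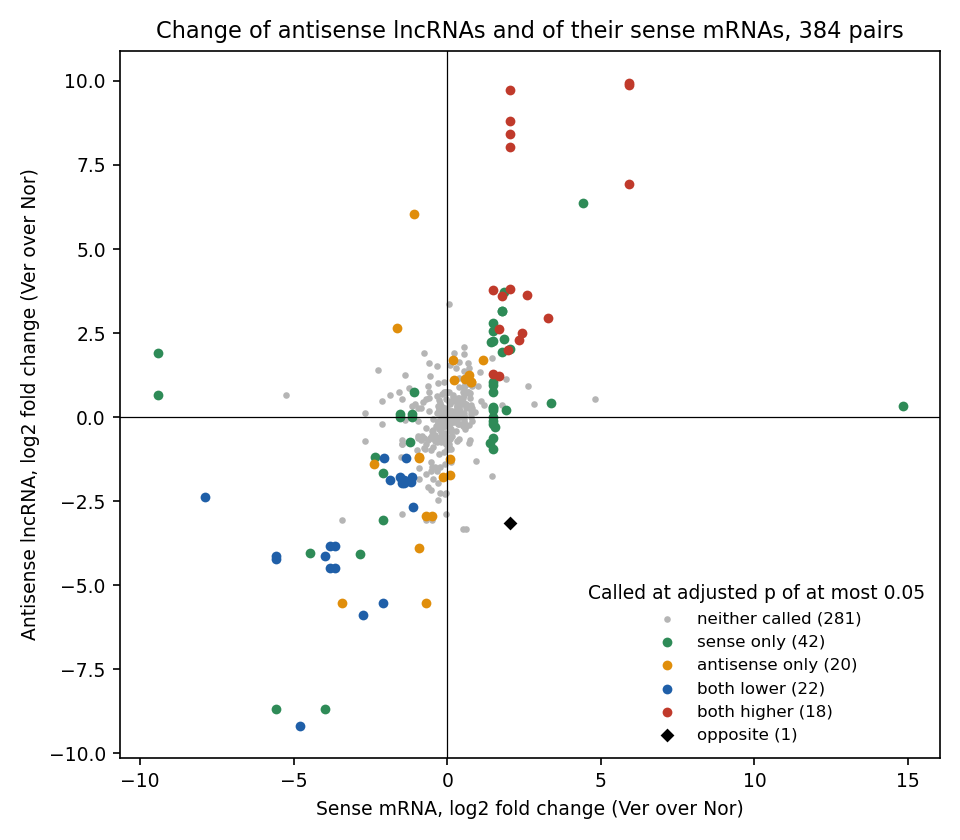
Log2 fold change (Ver over Nor) of the sense mRNA (x axis) and the antisense lncRNA (y axis) in 384 pairs, coloured by which members were called. The 40 pairs called in the same direction lie at the upper right (18) and the lower left (22), and 1 pair lies in the lower right.

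Pairs called together occurred in every class of overlap. They made up 15.4% of 91 tested pairs with the sense mRNA within the antisense span, 14.3% of 70 with overlapping 5′ ends, 9.09% of 165 with overlapping 3′ ends and 1.72% of 58 with the antisense within the sense mRNA. Of the 56 tested pairs that overlap by at most 10 bases, 6 (10.7%) were called together, beside 34 of 328 (10.4%) with a longer overlap. The plot of calls by overlap shows these shares, which were not tested against each other.

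**Figure D3:**
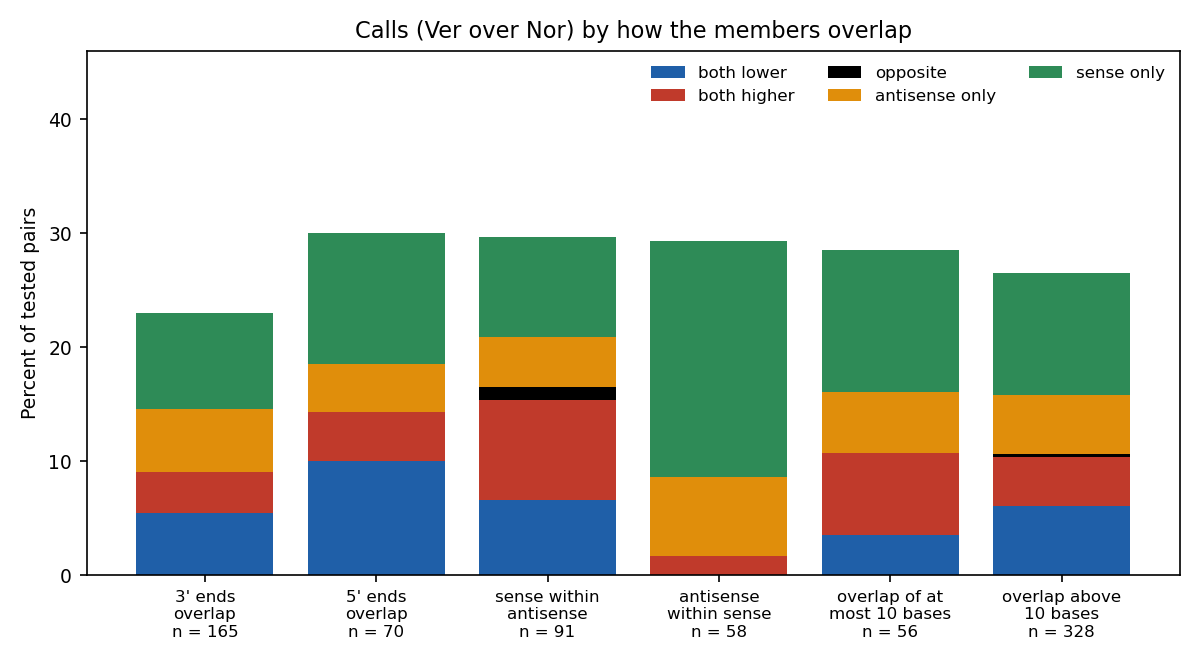
Percent of tested pairs (y axis) in which both members were called (lower, higher or opposite in Ver), or the antisense or the sense alone, as stacked bars by how the spans overlap (n, tested pairs). Pairs with the antisense within the sense mRNA have the lowest share called together, 1.72% of 58.

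Of the 59 called antisense lncRNAs, 34 overlapped a called sense mRNA, 16 overlapped tested sense mRNAs of which none was called, 4 had no tested sense mRNA and 5 had none at all. A call can depend on 1 library with 3 in a group. When each library was left out in turn, 38 of the 59 antisense calls and 40 of the 51 sense calls were kept in all 6 fits, and 27 of the 40 same-direction pairs (12 higher and 15 lower) kept both calls. Calls named in the next paragraphs without a further remark were kept in all 6 fits.

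Among the pairs that were higher in Ver, MSTRG.22964.1 (A08:17431875-17432185, plus strand) overlapped the 5′ end of BraA08g023650.3C, chlorophyll a-b binding protein 1 of the light-harvesting antenna, by 253 bases. The antisense had 304, 395 and 297 FPKM in Ver and 57.3, 61.8 and 54.7 FPKM in Nor. The sense had 1898, 1943 and 1922 FPKM in Ver and 356, 357 and 351 FPKM in Nor. The groups did not overlap for either strand. The antisense rose by 2.51 ± 0.13 (log2, SE, edgeR adjusted p = 0.000196) and the sense by 2.43 ± 0.02 (edgeR adjusted p = 8.7e-07), and the antisense-to-sense ratio changed by 0.04 ± 0.16 (log2 difference Ver minus Nor, SE, limma, adjusted p = 0.89).

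The joint rise with the largest fold changes was that of the MSTRG.12636 antisense lncRNAs with BraA05g002150.3C, an uncharacterized protein, whose gene lies within their spans. MSTRG.12636.3 (A05:1232363-1233556, minus strand) had 20.7, 10.9 and 10.4 FPKM in Ver and 0.13, 0.122 and 0.074 FPKM in Nor, a rise of 6.93 ± 0.45 (log2, SE, edgeR adjusted p = 0.000381). The sense mRNA had 336, 357 and 337 FPKM in Ver and 4.79, 5.83 and 6.34 FPKM in Nor, a rise of 5.92 ± 0.13 (edgeR adjusted p = 1.3e-05). Every Ver library was above every Nor library on both strands. MSTRG.12636.1 had 98, 128 and 131 counts and MSTRG.12636.2 had 100, 141 and 129 counts in Ver, and both had 0 counts in the 3 Nor libraries. Against a floor of 3 counts per library they were at least 39.8-fold and at least 41.3-fold higher in Ver.

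Several other pairs that rose together were chosen for mention after their values were seen. Defensin-like protein 19 (BraA08g028170.3C), of a family of antimicrobial peptides, rose by 3.28 ± 0.12, and MSTRG.23302.1, which met its 3′ end over 3 bases, rose by 2.96 ± 0.10. The antisense had 1210, 1158 and 1211 counts in Ver and 149, 146 and 158 counts in Nor. ABSCISIC ACID-INSENSITIVE 5 (BraA05g009140.3C), the bZIP factor that holds back germination in the presence of abscisic acid, rose by 1.69 ± 0.15, and MSTRG.13139.1, which met its 3′ end over 1 base, by 2.63 ± 0.19. A glycine-rich protein 3 (BraA03g042010.3C), of a cell wall protein family, rose by 2.34 ± 0.07 with MSTRG.9047.1 (2.29 ± 0.30, overlap 800 bases). A U-box protein 4 (BraA03g046950.3C), of a ubiquitin ligase family, rose by 1.97 ± 0.12 with MSTRG.9397.1 (1.99 ± 0.27, overlap 2 bases). In these 4 pairs the ratio of the strands missed the threshold. By the size of its change, MSTRG.15912.1, with 8 exons, belongs here too. It had 1.36, 1.69 and 2.11 FPKM in Ver and 0.068, 0.226 and 0.115 FPKM in Nor and rose by 3.62 ± 0.51 (edgeR adjusted p = 0.00536), with BraA06g007980.3C, whose 3′ end it overlapped, rising by 2.61 ± 0.16.

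Other calls of single transcripts depended on which libraries were kept. MSTRG.14040.2, which overlapped the cell wall-plasma membrane linker protein BraA05g025150.3C, had 1256, 1606 and 6385 counts in Ver and 108, 93 and 467 counts in Nor, a rise of 3.79 ± 0.99 (edgeR adjusted p = 0.0422). MSTRG.19338.3, which overlapped the wall protein gene extensin-3-like (BraA07g015270.3C), had 1.72, 2.44 and 13.0 FPKM in Ver and 0.344, 0.394 and 0.646 FPKM in Nor, a rise of 3.61 ± 0.94 (edgeR adjusted p = 0.042). In both, Ver 3 was far above the other Ver libraries. The call on MSTRG.14040.2 was lost in every fit except that without Nor 3 (edgeR adjusted p up to 0.121, log2 fold change between 2.74 and 4.85), and that on MSTRG.19338.3 without Nor 1, Nor 2, Nor 3 or Ver 2 (edgeR adjusted p up to 0.132, log2 fold change between 2.15 and 4.04). Summed over all transcripts of the antisense locus, MSTRG.14040 rose by 1.79 ± 0.34 (log2, SE, edgeR adjusted p = 0.00163). MSTRG.19338 rose by 2.83 ± 0.36 in the same way (edgeR adjusted p = 0.000149). The sense mRNAs of the 2 transcripts rose by 1.48 ± 0.03 and 1.79 ± 0.06 in libraries that did not overlap.

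The pairs that fell together included many in which a short antisense lncRNA bridged 2 copies of a duplicated gene. In 30 antisense lncRNAs from 25 assembled genes, both ends of the span lay in, or within 1000 bases of, sense mRNAs that carried the same description. Of these, 28 had 2 exons, and the 30 had a median length of 293 bases over a median span of 8332 bases. Of the 26 that were tested, 9 were called, all lower in Ver. Among all tested antisense lncRNAs 7.98% were called lower, and among all tested transcripts 6.48%. In 6 of the 9 both flanking copies were called lower as well. Several of the 9 lie over the same copies, such as MSTRG.10446.1 with MSTRG.10446.2 and MSTRG.16069.1 with MSTRG.16071.1. They are thus not separate loci, and this class was added after the data were seen. Reads shared between near-identical copies cannot be assigned with certainty, and the part of such reads in these antisense counts was not tested. The map of spans shows 5 of the loci where several copies lie under 1 antisense span.

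**Figure D4:**
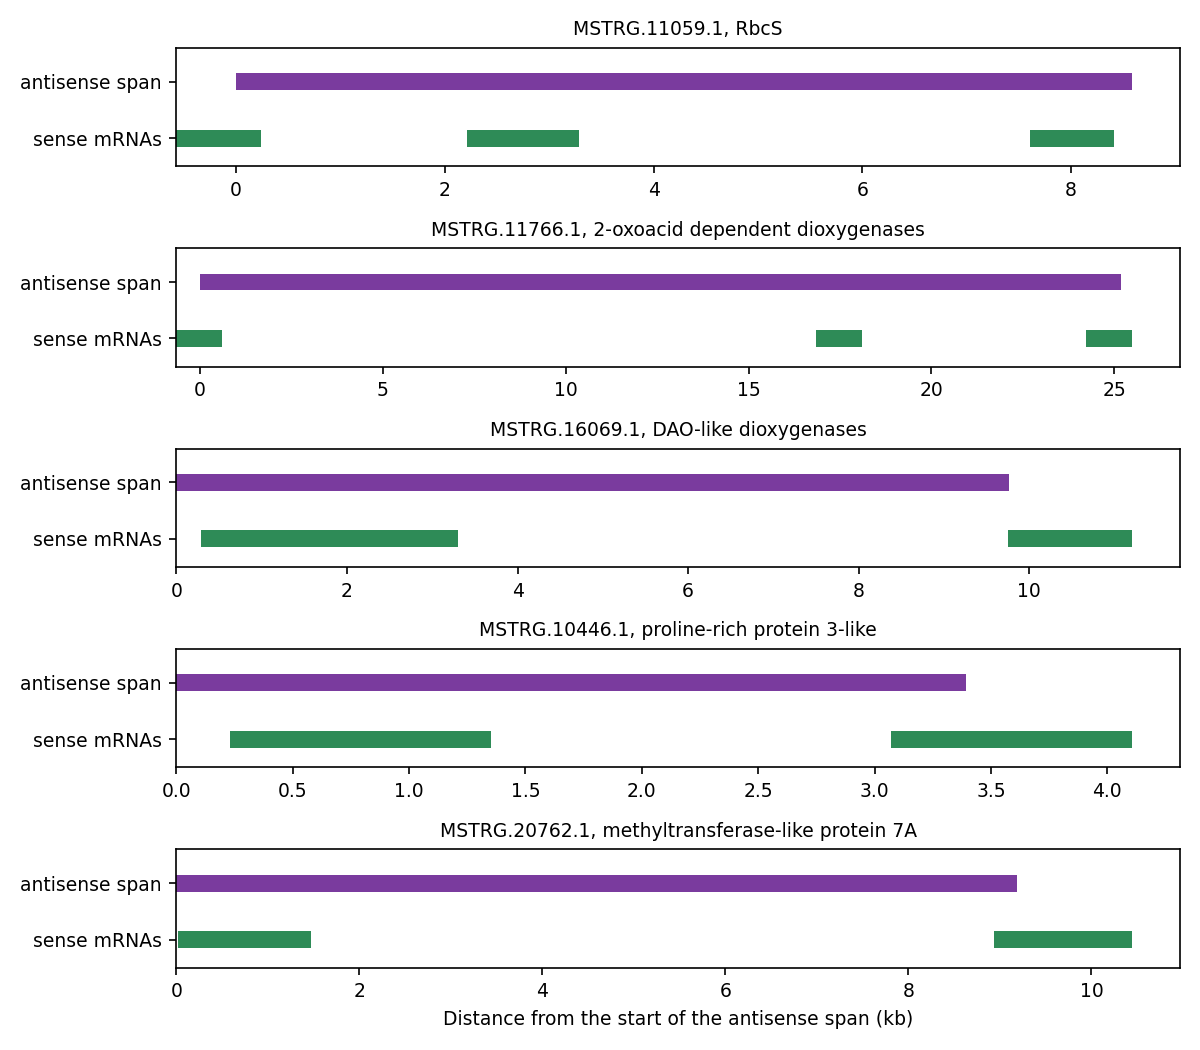
Span of an antisense lncRNA (upper bar) and of the sense mRNAs it overlaps (lower bars) at 5 loci, by distance from the start of the antisense span (x axis, kb). In each, the first and the last sense mRNA, at or near the ends of the antisense span, are copies of 1 gene family.

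Dioxygenase genes gave 4 of these 9 falls. MSTRG.11766.1 (A04:16396027-16421204, plus strand, 316 bases in 2 exons) reached over 3 genes described as probable 2-oxoacid dependent dioxygenases, enzymes that oxidise small molecules. It had 1.12, 1.11 and 0.909 FPKM in Ver and 17.3, 21.0 and 17.8 FPKM in Nor, a fall of 4.14 ± 0.16 (log2, SE, edgeR adjusted p = 7.3e-05). BraA04g022080.3C at its 3′ end had 0.351, 0.248 and 0.284 FPKM in Ver and 5.02, 4.90 and 4.20 FPKM in Nor, and fell by 3.98 ± 0.20 (edgeR adjusted p = 0.000154). The antisense exceeded this sense mRNA in every library. BraA04g022060.3C at its 5′ end had 0.093, 0.045 and 0.005 FPKM in Ver and 2.63, 3.43 and 1.32 FPKM in Nor, a fall of 5.57 ± 0.97 (edgeR adjusted p = 0.0111) whose call was lost without Ver 2 (log2 fold change -5.56, adjusted p = 0.0524). The gene between them, BraA04g022070.3C, was not tested.

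MSTRG.11765.1 in the same cluster had 2, 0 and 0 counts in Ver and 13, 14 and 17 counts in Nor. Its call (log2 fold change -4.23 ± 1.06, edgeR adjusted p = 0.0366) was kept only without Ver 1, and in the other 5 fits the adjusted p reached 0.105. Over the 6 fits the log2 fold change lay between -6.90 and -3.70.

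On A06, 2 genes for 2-oxoglutarate-dependent dioxygenase DAO-like proteins, of the family that oxidises the hormone auxin in Arabidopsis thaliana, fell by 3.67 ± 0.31 (BraA06g010260.3C) and 3.81 ± 0.11 (BraA06g010270.3C). MSTRG.16069.1 (A06:5584692-5594449, plus strand) had 0.464, 0.262 and 0.561 FPKM in Ver and 6.55, 5.96 and 6.64 FPKM in Nor and fell by 3.84 ± 0.33 (edgeR adjusted p = 0.000953). BraA06g010270.3C had 2.26, 2.82 and 2.34 FPKM in Ver and 33.6, 35.1 and 35.7 FPKM in Nor. All values of the 2 groups were apart for both transcripts. MSTRG.16071.1 over the same genes had 2, 24 and 42 counts in Ver and 554, 372 and 574 counts in Nor. Its call (log2 fold change -4.48 ± 0.99, edgeR adjusted p = 0.0252) was lost without Nor 1, Nor 2, Nor 3 or Ver 2, with adjusted p up to 0.0893 and a log2 fold change between -5.24 and -3.95.

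Further bridging antisense lncRNAs fell with their sense genes, and these were chosen for mention after their values were seen. MSTRG.10446.1 fell by 1.97 ± 0.11, with 8.04, 9.45 and 8.12 FPKM in Ver and 36.4, 30.8 and 32.6 FPKM in Nor. The genes for proline-rich protein 3-like, a cell wall protein, at or near its ends fell by 1.40 ± 0.04 (BraA04g000650.3C) and 1.47 ± 0.05 (BraA04g000660.3C). Another gene of that name on A07, BraA07g025190.3C, fell by 1.88 ± 0.04 with MSTRG.20082.1 (1.86 ± 0.09), whose 5′ end it overlapped by 671 bases. MSTRG.20762.1 fell by 1.23 ± 0.07, with 49.2, 42.1 and 47.2 FPKM in Ver and 108, 112 and 104 FPKM in Nor. The methyltransferase-like protein 7A genes under it fell by 1.33 ± 0.02 (BraA07g034400.3C) and 2.08 ± 0.12 (BraA07g034410.3C).

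Among genes without a bridged copy, 1-aminocyclopropane-1-carboxylate oxidase 1 (BraA07g001200.3C), the enzyme of the last step of ethylene synthesis, had 0.616, 0.49 and 0.339 FPKM in Ver and 13.8, 15.2 and 11.2 FPKM in Nor. It fell by 4.78 ± 0.29 (log2, SE, edgeR adjusted p = 0.000285). MSTRG.18584.1 (A07:835568-840261, minus strand) overlapped its 3′ end by 227 bases and had 0 counts in the 3 Ver libraries against 60, 61 and 95 counts in Nor, which is at least 24.3-fold lower in Ver with a floor of 3 counts per library. A second gene of that name, BraA07g001240.3C, fell by 4.46 ± 0.27. MSTRG.18590.1 within it had 18, 14 and 0 counts in Ver and 220, 150 and 173 counts in Nor. It missed the threshold in the fit of transcripts (log2 fold change -4.05 ± 1.23, edgeR adjusted p = 0.0651). In the fit of counts summed over each assembled gene and strand, this locus of 1 transcript was called (log2 fold change -4.06 ± 0.63, edgeR adjusted p = 0.000477). MSTRG.5821.1 fell by 2.39 ± 0.10, with 7.07, 6.18 and 6.58 FPKM in Ver and 35.1, 35.2 and 33.3 FPKM in Nor, and its sense mRNA BraA02g044200.3C was at 0 counts in Ver and 29, 35 and 22 counts in Nor, at least 9.9-fold lower in Ver.

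**Figure D5:**
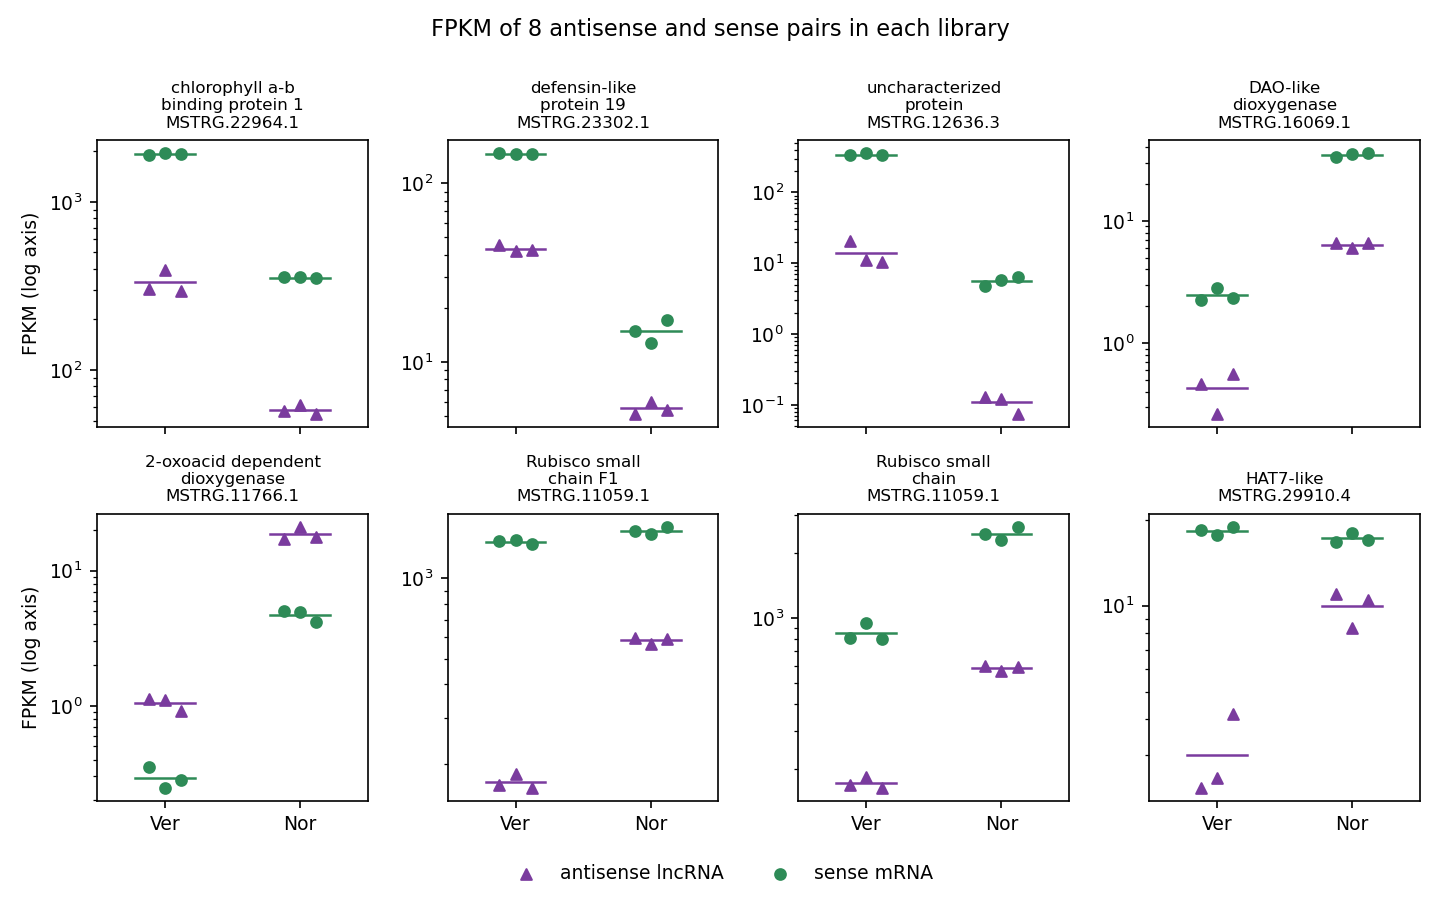
FPKM (y axis, log) of the antisense lncRNA (triangles) and the sense mRNA (circles) of 8 pairs in the 3 Ver and 3 Nor libraries, with the group means as lines. The strands move together except at Rubisco small chain F1 and HAT7-like, where the antisense is lower in Ver and the sense differs little.

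At the Rubisco small chain cluster on A04 1 antisense lncRNA ran along sense genes that behaved differently. MSTRG.11059.1 (A04:8655191-8663774, minus strand, 525 bases in 2 exons) had 168, 184 and 164 FPKM in Ver and 599, 569 and 595 FPKM in Nor and fell by 1.78 ± 0.06 (log2, SE, edgeR adjusted p = 3.6e-05). BraA04g010970.3C near its 5′ end, a Rubisco small chain gene, had 807, 952 and 795 FPKM in Ver and 2447, 2287 and 2638 FPKM in Nor and fell by 1.53 ± 0.09 (edgeR adjusted p = 0.000307). BraA04g010950.3C at its 3′ end, the small chain F1 gene, had 1386, 1400.2 and 1344 FPKM in Ver and 1510.0, 1471 and 1562 FPKM in Nor, a log2 fold change of -0.14 ± 0.03 below the fold threshold. The antisense-to-sense ratio fell by 1.63 ± 0.09 (log2, SE, limma adjusted p = 0.000728) against the F1 gene and differed by -0.24 ± 0.09 (limma adjusted p = 0.201) against the other copy. The uncharacterized gene between them, BraA04g010960.3C, had 0.651, 0.392 and 0.631 FPKM in Ver and 1.49, 1.15 and 1.13 FPKM in Nor. Its call (log2 fold change -1.16 ± 0.28, edgeR adjusted p = 0.0341) was lost without any 1 of the 6 libraries, with adjusted p between 0.0655 and 0.103.

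Antisense lncRNAs also changed over sense mRNAs that did not pass the threshold. MSTRG.18234.1 spanned 2 genes for 14 kDa proline-rich protein DC2.15-like, of a lipid-transfer-like family, and had 1.11, 1.40 and 0.428 FPKM in Ver and 8.46, 5.91 and 8.34 FPKM in Nor, a fall of 2.93 ± 0.49 (log2, SE, edgeR adjusted p = 0.00993). BraA06g041490.3C under it had 1.15, 4.29 and 3.83 FPKM in Ver and 4.15, 4.31 and 4.64 FPKM in Nor, and these overlap. With counts summed over the assembled gene, the sense locus had 971, 1231 and 1391 counts in Ver and 5905, 5622 and 6092 counts in Nor. This sum was called lower (log2 fold change -2.31 ± 0.10, edgeR adjusted p = 1.0e-07). The sense strand of the locus as a whole thus fell with the antisense. MSTRG.18234.3, which bridged copies of the same family, had 1 count in each Ver library and 80, 11 and 68 counts in Nor, a fall of 5.52 ± 0.89 (edgeR adjusted p = 0.00864) that is the largest fitted fall among the 9 bridging antisense lncRNAs called. Of the 3 copies under it only BraA06g041520.3C was called, with a log2 fold change of -2.10.

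MSTRG.11001.1 lay within the chloroplast phosphoglycolate phosphatase 1B gene (BraA04g009980.3C), which acts in photorespiration, and had 51, 26 and 60 counts in Ver and 20, 9 and 13 counts in Nor. Its call (log2 fold change 1.70 ± 0.46, edgeR adjusted p = 0.0458) was kept only without Ver 2, and in the other 5 fits the adjusted p reached 0.138 and the log2 fold change was as low as 1.49, while the sense stood at 66.1, 63.6 and 61.8 FPKM in Ver and 55.9, 55.8 and 56.2 FPKM in Nor.

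MSTRG.29910.4 and MSTRG.29910.2 overlapped the 3′ end of the homeobox-leucine zipper gene HAT7-like (BraA10g024200.3C) and fell by 1.73 ± 0.29 (edgeR adjusted p = 0.00985) and 1.25 ± 0.20 (edgeR adjusted p = 0.0083). HAT7-like had 18.4, 17.6 and 18.9 FPKM in Ver and 16.7, 18.0 and 16.9 FPKM in Nor. The 6 class x transcripts of this locus together held 22476, 23406 and 25300 counts in Ver and 28182, 22342 and 28298 counts in Nor, a log2 fold change of -0.15 ± 0.04. The sum over the antisense strand was thus below the fold threshold that these transcripts passed.

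MSTRG.21876.5 and MSTRG.5633.1 were among the largest falls of antisense lncRNAs with at least 10 counts on average in Ver. MSTRG.21876.5, over a caldesmon-like gene (BraA08g006680.3C), had 17, 1 and 19 counts in Ver and 152, 177 and 211 counts in Nor. Its call (log2 fold change -3.88 ± 0.95, edgeR adjusted p = 0.0345) was kept only without Ver 2, and in the other 5 fits the adjusted p reached 0.0899, with a log2 fold change between -4.28 and -3.33 over the 6 fits. MSTRG.5633.1 had 44, 49 and 18 counts in Ver and 709, 483 and 246 counts in Nor. It fell by 3.70 ± 0.62 (edgeR adjusted p = 0.00991) and MSTRG.5632.1 beside it by 2.34 ± 0.08 (edgeR adjusted p = 4.9e-05). MSTRG.5632.1 had 2.19, 2.19 and 2.09 FPKM in Ver and 11.5, 11.1 and 10.0 FPKM in Nor. Both are assigned to BraA02g041120.3C, which was not analysed here.

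Larger falls were found below that count, and these were chosen for mention after their values were seen. MSTRG.6282.1, which met the 3′ end of a gene for coiled-coil domain-containing protein 25 over 4 bases, had 0 counts in the 3 Ver libraries and 76, 54 and 131 counts in Nor, at least 29.0-fold lower in Ver. Its sense mRNA BraA03g004690.3C was not tested as a single transcript. With counts summed over the assembled gene, the sense locus had 7543, 7392 and 7822 counts in Ver and 10378, 7714 and 9321 counts in Nor. The log2 fold change of this sum was -0.27 ± 0.05, below the fold threshold. MSTRG.4952.1, over a pair of genes for putative lipid-binding protein AIR1, had 0, 0 and 8 counts in Ver and 174, 159 and 142 counts in Nor. This call (log2 fold change -5.88 ± 1.43, edgeR adjusted p = 0.0339) was kept only without Ver 3, and in the other 5 fits the adjusted p reached 0.0868, with a log2 fold change between -10.31 and -5.32 over the 6 fits.

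The 1 pair called in opposite directions was MSTRG.18084.1 with PHYTOCHROME KINASE SUBSTRATE 1 (BraA06g039540.3C), a protein that acts downstream of the phytochrome and phototropin photoreceptors in Arabidopsis thaliana. The antisense had 11, 8 and 10 counts in Ver and 187, 33 and 46 counts in Nor, a fall of 3.15 ± 0.76 (log2, SE, edgeR adjusted p = 0.033). The sense had 11.4, 10.6 and 10.5 FPKM in Ver and 2.48, 2.86 and 2.48 FPKM in Nor, a rise of 2.05 ± 0.10 (edgeR adjusted p = 0.00012). The ratio of the strands fell by 2.98 ± 0.44 (log2, SE, limma adjusted p = 0.0184). The antisense call was lost without Ver 1, Ver 2 or Ver 3 (edgeR adjusted p up to 0.111). Without Nor 1, which held most of the Nor counts, it was kept with a log2 fold change of -2.05, and over the 6 fits that value lay between -3.52 and -2.05. The call on the ratio was lost without Nor 3, Ver 1, Ver 2 or Ver 3 (limma adjusted p between 0.0529 and 0.0717).

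Another 5 transcripts of MSTRG.18084 were called higher in Ver, so that transcripts of this antisense gene were called in both directions. MSTRG.18084.2, MSTRG.18084.3, MSTRG.18084.4 and MSTRG.18084.5 had between 13 and 157 counts in the Ver libraries and 0 counts in the Nor libraries. The call on MSTRG.18084.2 was lost without Ver 1 or Ver 3 (edgeR adjusted p up to 0.0882), and that on MSTRG.18084.4 in every fit except that without Ver 3 (edgeR adjusted p up to 0.0734). MSTRG.18084.8 had 162, 776 and 1970 counts in Ver and 81, 47 and 77 counts in Nor. Its call (edgeR adjusted p = 0.0335) was kept only without Ver 1, and in the other 5 fits the adjusted p reached 0.111, with a log2 fold change between 2.79 and 4.29 over the 6 fits. Summed over its 8 transcripts, the antisense locus had 2051, 2934 and 3688 counts in Ver and 319, 569 and 780 counts in Nor and rose by 2.36 ± 0.30 (log2, SE, edgeR adjusted p = 0.000142), in the direction of the sense gene. With counts summed over each assembled gene and strand, an alternative added after the data were seen, 0 of 289 locus pairs were called in opposite directions. In the same direction 37 (12.8%) were called, and the share among neighbouring mRNAs is not given for gene sums. Of 284 antisense loci, 64 (22.5%) were called, 30 (10.6%) higher and 34 (12%) lower, beside 18.3% of all 32467 single gene sums.

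The ratio of antisense to sense was compared directly over the 384 pairs with limma on log2(CPM + 0.5), where CPM are counts scaled to the same library size in all libraries. The ratio was called changed, at an adjusted p of at most 0.05 and an absolute log2 difference above 1, in 30 pairs (7.81%), 10 (2.6%) higher and 20 (5.21%) lower in Ver. Of these, 11 had both members at 1 CPM or more in each group, and in the others the 0.5 CPM added limits the ratio. The count depended on single libraries and was 16 without Nor 3, 14 without Ver 1 and 15 without Ver 2. Beta-amylase 3 (BraA03g047370.3C), a starch-degrading enzyme, is an example chosen after its values were seen. It had 10.5, 10.4 and 10.5 FPKM in Ver and 0.922, 1.16 and 0.904 FPKM in Nor, and rose by 3.39 ± 0.12. MSTRG.9424.1, which met its 3′ end over 4 bases, had 3.01, 2.23 and 3.19 FPKM in Ver and 2.33, 1.92 and 1.95 FPKM in Nor, and the ratio of the strands fell by 2.79 ± 0.21 (log2, SE, limma adjusted p = 0.00282).

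The gene lists hold only mRNAs with an antisense lncRNA, and 350 of all 33354 mRNAs had one. They do not show whether genes of flowering and cold response have one more or less often. The list of flowering and vernalization genes held 5 sense mRNAs, of which 3 were tested, 0 were called higher and 1 lower in Ver, and 3 antisense lncRNAs, of which 2 were tested and 0 called (edgeR, 0 also at an unadjusted p of at most 0.05 and by DESeq2). The median log2 fold change of the 3 tested sense mRNAs was -1.85. The 1 called lower was FLC (BraA03g004170.3C on A03, a MADS-box repressor of flowering). It had 51, 18 and 56 counts in Ver and 1259, 1087 and 1492 counts in Nor, a fall of 4.95 ± 0.49 (log2, SE, edgeR adjusted p = 0.00163). MSTRG.6235.1 (A03:1785079-1788444, plus strand, 2 exons) overlapped it by 2840 bases and had 0, 8 and 0 counts in Ver and 8, 12 and 0 counts in Nor, too few to be tested. A difference of this antisense lncRNA was not detectable at this depth.

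MSTRG.30188.1, which overlapped the 3′ end of the FLC copy on A10 (BraA10g027720.3C) by 165 bases, had 22, 19 and 21 counts in Ver and 21, 6 and 20 counts in Nor. With counts summed over the assembled gene, its sense locus had 62, 67 and 62 counts in Ver and 458, 378 and 472 counts in Nor. This sum was called lower, with a log2 fold change of -2.77 ± 0.13 (SE, edgeR adjusted p = 1.7e-07). MSTRG.5881.1 spanned or met genes described as MADS AFFECTING FLOWERING 5-like and AGL27, relatives of FLC, and had 10, 14 and 31 counts in Ver and 11, 9 and 14 counts in Nor. Both antisense lncRNAs were near the lower limit of what the test could use, and their groups overlapped.

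In the cold and desiccation list, 2 sense mRNAs had an antisense lncRNA. The senescence/dehydration-associated protein BraA05g025530.3C had 219, 246 and 329 counts in Ver and 89, 103 and 101 counts in Nor and rose by 1.40 ± 0.22 (log2, SE, edgeR adjusted p = 0.00836). MSTRG.14063.1, which overlapped its 3′ end by 306 bases, had 83, 129 and 104 counts in Ver and 169, 175 and 190 counts in Nor, a log2 fold change of -0.78 ± 0.23 that missed the threshold (edgeR adjusted p = 0.0586). The ratio fell by 1.66 ± 0.19 (log2, SE, limma adjusted p = 0.0091), and no Ver value overlapped a Nor value on either strand. The other member of the list, the galactinol-sucrose galactosyltransferase 6 gene BraA10g020320.3C, of raffinose sugar synthesis, had 1 to 3 counts in each library and was not tested. MSTRG.29594.1, which overlapped its 5′ end by 70 bases, had 0, 15 and 21 counts in Ver and 31, 83 and 129 counts in Nor. The groups did not overlap, but the log2 fold change of -2.79 ± 1.29 missed the threshold (edgeR adjusted p = 0.184). In the fit of gene sums this locus of 1 transcript was called (log2 fold change -2.77 ± 0.87, edgeR adjusted p = 0.0228). DESeq2 called 1 of the 2 antisense lncRNAs of this list.

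In the clock and light list, MSTRG.24416.1 rose by 1.06 ± 0.16 (edgeR adjusted p = 0.00712) with 226, 238 and 282 counts in Ver and 114, 113 and 126 counts in Nor, a call lost without Ver 3 (log2 fold change 0.99). Its sense mRNA APRR1 (BraA09g006930.3C), a component of the circadian clock in Arabidopsis thaliana, had 7.32, 7.53 and 8.40 FPKM in Ver and 4.47, 4.82 and 4.43 FPKM in Nor, a log2 fold change of 0.76 ± 0.08.

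The other lists are small, and their counts stand beside 17.6% of all tested sense mRNAs and 15.7% of all tested antisense lncRNAs called. In photosynthesis, 1 of 5 tested sense mRNAs rose and 1 fell, and 1 of 7 tested antisense lncRNAs rose and 1 fell. Among hormone genes, 1 of 6 tested sense mRNAs rose and 2 fell, and 2 of 7 antisense lncRNAs rose and 1 fell. Among 25 tested sense mRNAs of translation and RNA processing, 1 rose and 0 fell, with a median log2 fold change of -0.19, and 0 of the 25 tested antisense lncRNAs over them were called (edgeR, 0 also at an unadjusted p and by DESeq2), with a median of -0.49, beside a median of 0.01 over all tested transcripts. Of the transcription factors, 0 of 8 tested sense mRNAs were called (edgeR, 0 also at an unadjusted p and by DESeq2), and 1 of 14 tested antisense lncRNAs over them rose and 3 fell. In the cell wall list, 3 of 9 sense mRNAs rose and 1 of 30 tested antisense lncRNAs rose. Among sense mRNAs in none of the lists, 16 of 202 tested were higher and 22 lower.

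Some antisense lncRNAs lay just downstream of a gene on their own strand. In 62 of them a same-strand mRNA ended within 1000 bases upstream, and in 45 both were tested. Both were called in the same direction in 1 of the 45 and in opposite directions in 0, beside 40 of 384 antisense and sense pairs called in the same direction. The log2 fold changes of the 45 correlated with r = -0.44. Some transcripts of 1 antisense gene share 1 neighbour. The 3 of MSTRG.12636, with log2 fold changes of 9.89, 9.94 and 6.93, share BraA05g002160.3C at -2.67, which was not called. They are the largest rises of the 45 and pull r down, so r does not describe the 45 in general. The value without these 3 transcripts is not given here. These values are descriptions and were not tested against each other.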

How the data were processed

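Per the methods of the study, reads were trimmed with Cutadapt, mapped with Bowtie2 and TopHat2 on the B. rapa v3.0 genome, and transcripts were assembled by StringTie and quantified by StringTie and Ballgown, while the submitters' processing notes list HISAT2, StringTie and TopHat. The authors deposited an estimated count per transcript and library, in whole numbers and not normalized. The FPKM values deposited by the authors take account of transcript length and of the size of the library, and 0.0001 stands for a count of 0 and was read as 0. The coding-potential filter of the study was not repeated, and junction counts of circRNAs were not used.

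The quasi-likelihood fit of edgeR 4.0.16 (R 4.3.3) was run on the estimated counts of all linear transcripts, after its filterByExpr filter and with TMM factors, and p-values were adjusted by Benjamini-Hochberg over 49351 transcripts. Dividing the size of a log2 fold change by the root of its F gave the SE. The common dispersion was 0.363. Ratios were fitted with limma 3.58.1 (eBayes, with the level of the lower member as trend). Both fits were run on simulated counts with known changes. The simulated counts held no reads shared between gene copies or given to the wrong strand, so the effect of such reads was not tested. The floor is 3 counts per library and covers counting error only. Replicates are dishes, so p-values measure the spread between dishes.

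Members, gene lists and named genes were chosen with earlier results of these data known. Named pairs follow ranks of joint change, antisense change, level, membership in the flowering or cold list and use of the transcript in the study. Alternatives were DESeq2 1.42.0, other normalizations and filters, limma on FPKM, counts divided by 3, an unadjusted p, a replicate block, stricter overlaps, gene sums and each library left out. Exon overlap could not be checked without exon coordinates. Tables were handled with Python 3.11 and pandas 2.3.3 and drawn with matplotlib 3.10.9.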

Additional observations from a re-analysis of the deposited data

How the results depend on the processing

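The counts of called antisense lncRNAs (59) and sense mRNAs (51) stayed within 1.5 times of these values in most alternatives. Same-numbered dishes did not deviate together (correlations of 0.006, 0.009 and 0.002 over 49351 transcripts). The study divided the seeds into groups after germination, and such correlations cannot exclude that same-numbered libraries share a dish. With a replicate block, 36 antisense lncRNAs (17 higher, 19 lower), 24 pairs in the same direction, 0 in opposite directions and 5 changed ratios were called. DESeq2 called 88 antisense lncRNAs (47 higher, 41 lower), 54 pairs in the same direction and 2 opposite pairs. With limma on log2(FPKM + 1), 45 antisense lncRNAs were called, 19 of them higher. The share of all tested transcripts called with DESeq2, limma or the replicate block is not given here. The 1 opposite pair became 2 with an unadjusted p and 0 with a mean CPM of at least 1, limma on FPKM with 1 or 0.1 added, an overlap of at least 50% of the antisense span, antisense FPKM of at least 5% of the sense, or gene sums. Sense counts summed over the gene gave 41 sense mRNAs lower. Same-direction pairs numbered 8 of 117 with an overlap of at least 50% of the antisense span, 22 of 230 with 1 pair for each transcript and, added after the data were seen, 20 of 258 with 1 sense mRNA only. They numbered 28 of 290 with the antisense at 5% or more of the sense FPKM. An FPKM ratio gave 19 changed ratios, and pairs at 1 CPM or more gave 11 (added after the data were seen).

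With each library left out, antisense calls ranged from 48 to 56 (20 to 28 higher, 27 to 31 lower), sense calls from 44 to 50 (22 to 26 higher, 21 to 24 lower), same-direction pairs from 31 to 35, opposite pairs from 0 to 3 and changed ratios from 14 to 25. Opposite pairs were 3 without Nor 2 and 0 without Ver 1, Ver 2 or Ver 3.

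Among named transcripts, values that had not been called changed sign. With each library left out, the log2 fold change of MSTRG.21717.1 ranged from -0.31 (without Nor 2) to 1.09. That of MSTRG.22946.1 ranged from -0.036 (without Nor 3) to 0.091 and was -0.002 without Ver 1, and that of its sense mRNA BraA08g023380.3C ranged from -0.035 (without Nor 3) to 1.24. The ratio of MSTRG.22946.1 to that mRNA ranged from -1.25 to 0.020 (without Nor 3), and that of MSTRG.21717.1 to BraA08g003440.3C from -0.055 (without Nor 2) to 4.67. The ratio of MSTRG.11766.1 to BraA04g022060.3C was 0.49 with 0.1 CPM added and 0.024 on FPKM, and that of MSTRG.12636.3 to BraA05g002150.3C was 0.065 with 0.1 CPM added and 0.11 on FPKM. MSTRG.21717.1 had 0 counts in Nor 2 only, BraA08g023380.3C had 0 counts in Nor 3 only, and the change of MSTRG.22946.1 was near 0 in every fit. For depth, 76 of the 452 antisense lncRNAs were too low to be tested.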
